A study of Drosophila melanogaster with 12 samples.

Results

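The fly genome annotation still holds many genes known by no more than a computed-gene number, CG followed by digits. The 121 genes described here carried such a name in the count table and were highest in T4 neurons of the optic lobe. They were chosen from measured values: the mean level in the T4 libraries had to reach 2 CPM, counts per 1000000 counts of the library, and to be at least 2 times the mean of each of the other 3 populations. The table holds 16272 genes, of which 7085 are named CG plus digits and 3001 of those had a T4 mean of 2 CPM or more. A further 8 CG names were left out by name. Because the rule used the T4 levels, every T4 value and every ratio to T4 below is a description with no test.

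RNA was sequenced from 4 fluorescence-sorted populations of the optic lobe of Drosophila melanogaster: T4 neurons, Pm2 neurons, glia sorted with the Repo driver and neurons sorted with the Elav driver. Glia and neurons were the controls. All flies were given as strain Canton-S, as adults aged 3 days, with a Gal4 driver and UAS-Red Stinger, a nuclear red fluorescent reporter, so the driver differs between populations and the reporter does not. The labels name the optic lobe as source and describe dissected brains. Each population has 3 libraries and is defined by a single driver line, so a difference between populations cannot be told apart from a difference between driver lines. The labels do not say that libraries of a population came from separate animals, so the p-values reflect library-to-library spread, which may be technical. The Elav sort takes neurons at large and can include T4 and Pm2 cells. In sorted bulk RNA, fewer cells with a transcript and less of it per cell cannot be told apart.

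T4 neurons are small columnar neurons that carry dendrites in the proximal medulla and an axon terminal in the lobula plate. They are the first cells of the ON motion pathway to respond selectively to the direction of motion, and they release acetylcholine. They exist in subtypes tuned to different directions, which the sort did not separate. Pm2 neurons are local neurons of the proximal medulla. A CG number says nothing of function, and for most members no role is stated here.

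Libraries held 35012892 to 57811629 counts. The labels of the populations were checked against marker genes. The transcription factors of T4 and T5 neurons (acj6, SoxN, Sox102F, TfAP-2, dac and Lim1) summed to 4506 to 4747 CPM in T4 libraries, 292 to 305 in Pm2, 11.3 to 17.9 in glia and 948 to 1086 in neurons. TfAP-2 made up nearly all of the sum in Pm2, with a mean of 294 CPM. T4 and neurons were not separated by dac, with means of 36.1 and 33.5 CPM and overlapping libraries. The summed level of the cholinergic markers had a mean over libraries of 1778 CPM in T4, 31.7 in Pm2, 20.8 in glia and 1590.2 in neurons. That of the GABAergic markers was 156, 12932, 38.8 and 2090.0 in the same order. The glial list, summed in the same way, came to 172 CPM in T4, 46.8 in Pm2, 35613 in glia and 717 in neurons. In T4, wrapper had no count, repo reached 0.929 CPM at most, and nrv2, Gs2 and the GABA transporter gene CG1732 had means of 52.2, 48.7 and 56.0 CPM. T4 replicate 1 had 52.8 CPM of muscle genes, mostly Mlc2 and Act88F, against 1.69 and 3.57 in the other T4 libraries, and 117 of the 121 members met the rule without that library.

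Members spanned 3 orders of magnitude in T4. The T4 mean ran from 2.02 to 2554 CPM with a median of 9.13. In 63 members it lay between 2 and 10 CPM, in 33 between 10 and 100 and in 25 at 100 or more, of which the top 5 ranged from 1034 to 2554 CPM. Together the members made up 1.62% to 1.77% of all counts in T4 libraries, 0.206% to 0.210% in Pm2, 0.0700% to 0.0761% in glia and 0.449% to 0.462% in neurons. Without the 3 most abundant, 1.10% to 1.19% of the T4 counts remained.

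The population next to T4 was neurons for 94 members, Pm2 for 21 and glia for 6. The median level was 8.52% of the T4 mean in Pm2, 1.76% in glia and 29.7% in neurons. No count was found for 12 members in Pm2 and for 32 in glia, 9 of them without a count in both, and every member had a count in neurons. A count of 0 over the 3 libraries allows a level of up to 0.0186 CPM in Pm2 and 0.0185 CPM in glia, for counting error alone. The ratio of the T4 mean to the next population had a median of 3.00. It was at least 3 in 60 members, at least 5 in 28 and at least 10 in 8.

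**Figure D1:**
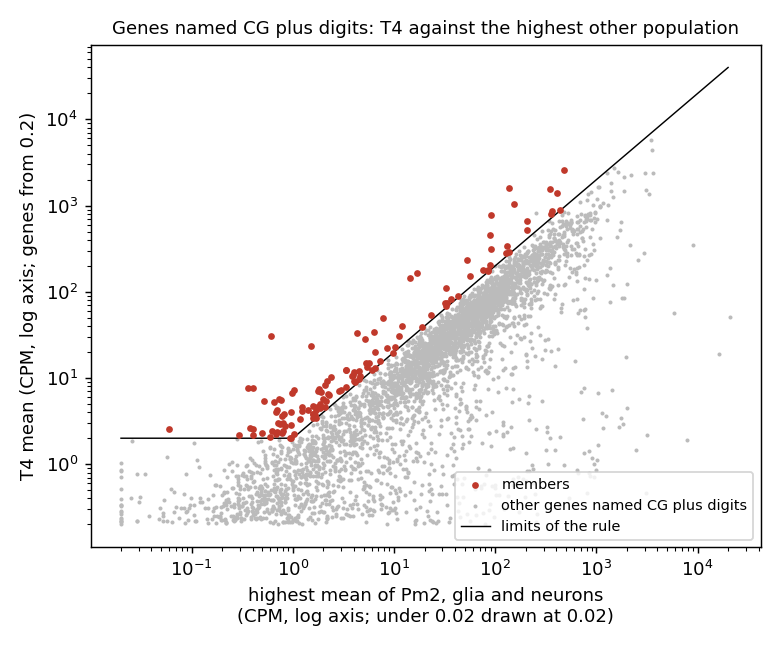
T4 mean against the highest of the Pm2, glia and neurons means, in CPM on log axes, for genes named CG plus digits with a T4 mean from 0.2 CPM. The 121 members (red) lie on or above the lines that mark a T4 mean of 2 CPM and 2 times the next population, with T4 means up to 2554 CPM, and many lie close to the line.

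The limits of the rule cut through a continuum. Just inside the ratio of 2 were Orcokinin (CG13565) at 2.00, CG6660 at 2.02 and CG10508 at 2.04. Just outside were CG11399, with a T4 mean of 197 CPM against 98.4 in neurons and a ratio that rounds to 2.00, CG3108 at 1.98 and CG33234 at 1.97. At the limit on level, CG44008, CG3999 and CG8468 were inside with T4 means of 2.02, 2.03 and 2.08 CPM. CG42463, CG31910 and CG15534 were outside with 1.94, 1.92 and 1.87 CPM. CG15534 was 72.8 times its next population and is no member because of its level.

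Of the members, 120 matched the annotation and all of these are protein coding; CG11231 did not match. A current RefSeq symbol other than the CG number was found for 19, and 101 are still CG numbers. CG15537, CG13898, CG8476 and CG1698 remain numbers but list crhbp, CBP7, Dnajb4 and DmNAT5 among their synonyms.

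The member with the most counts in T4 was CG42750 (chromosome arm 2L, 18159811 to 18275770, minus strand, build BDGP6). It had 2353, 2554 and 2755 CPM in T4, 482, 483 and 457 CPM in Pm2, 7.16, 2.57 and 1.91 CPM in glia, and 412, 457 and 412 CPM in neurons. All T4 libraries lay far above the rest, Pm2 and neurons were close to each other, and the T4 mean was 659 times the glial mean.

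CG15537, next by counts, had 1371, 1573 and 1819 CPM in T4, 0.398, 0.409 and 1.03 CPM in Pm2, 0, 4.18 and 0 CPM in glia, and 185, 110.2 and 119 CPM in neurons. Its mean was 11.5 times that of neurons. It is on 3R at 30435177 to 30443599, and its synonym is that of a binding protein of corticotropin-releasing hormone in vertebrates. Per kb of exon it ranked first among the members, at 992 CPM per kb in T4, ahead of CG14340 at 504, CG42750 at 369, Drgx at 346 and CG10508 at 273. CG14340 is a short gene (2L, 1112941 to 1114138) and had 595, 429.7 and 533 CPM in T4, 10.1, 7.69 and 9.32 CPM in Pm2, 11.4, 6.09 and 3.63 CPM in glia, and 269, 174 and 175 CPM in neurons.

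CG43902 (X, 10158434 to 10195337) was low outside T4 and neurons. It had 1344, 1449 and 1381 CPM in T4, 0.692, 0.545 and 1.62 CPM in Pm2, 3.33, 5.90 and 3.61 CPM in glia, and 437, 367 and 407 CPM in neurons. CG13579 (2R, 24455292 to 24490656) was graded, with 733, 785 and 828 CPM in T4, 30.5, 32.0 and 34.6 CPM in Pm2, 0.0601, 3.16 and 2.05 CPM in glia, and 94.1, 95.5 and 81.6 CPM in neurons. CG3655 (X, 1073041 to 1134896) had T4 values of 429 to 492 CPM, Pm2 values of 0.229 to 0.428, glia values of 1.03 to 6.85 and neurons values of 84.0 to 93.9. These genes separated all T4 libraries from all others by a wide margin.

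Other abundant members were less far from a second population. CG10508 (3L, 21210215 to 21216051) had 944, 941 and 795 CPM in T4, 432, 459.6 and 420.5 CPM in Pm2, 91.0, 96.8 and 90.9 CPM in glia, and 389, 365 and 367 CPM in neurons. CG6454 (3R, 24349182 to 24356241) was the most even, with 305, 287 and 269.9 CPM in T4, 129, 132 and 147 CPM in Pm2, 99.5, 80.2 and 89.8 CPM in glia, and 113, 127 and 128 CPM in neurons. CG45002 (X, 16969069 to 17066732) had T4 values of 791 to 840.1 CPM, Pm2 values of 131 to 165, glia values of 2.00 to 5.08 and neurons values of 258 to 404.

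CG42458 (3L, 7423827 to 7454717) and CG43658 (X, 17456169 to 17561180) were lowest in Pm2. CG42458 had 341, 361 and 305 CPM in T4, 0.311, 0.0973 and 0.305 CPM in Pm2, 20.1, 30.9 and 24.2 CPM in glia, and 133, 136 and 122 CPM in neurons. CG43658 had 254, 344 and 335 CPM in T4, 0.381, 0.817 and 0.515 CPM in Pm2, 30.2, 43.7 and 62.3 CPM in glia, and 97.5, 89.6 and 85.0 CPM in neurons. In both genes every glial library was above every Pm2 library.

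**Figure D2:**
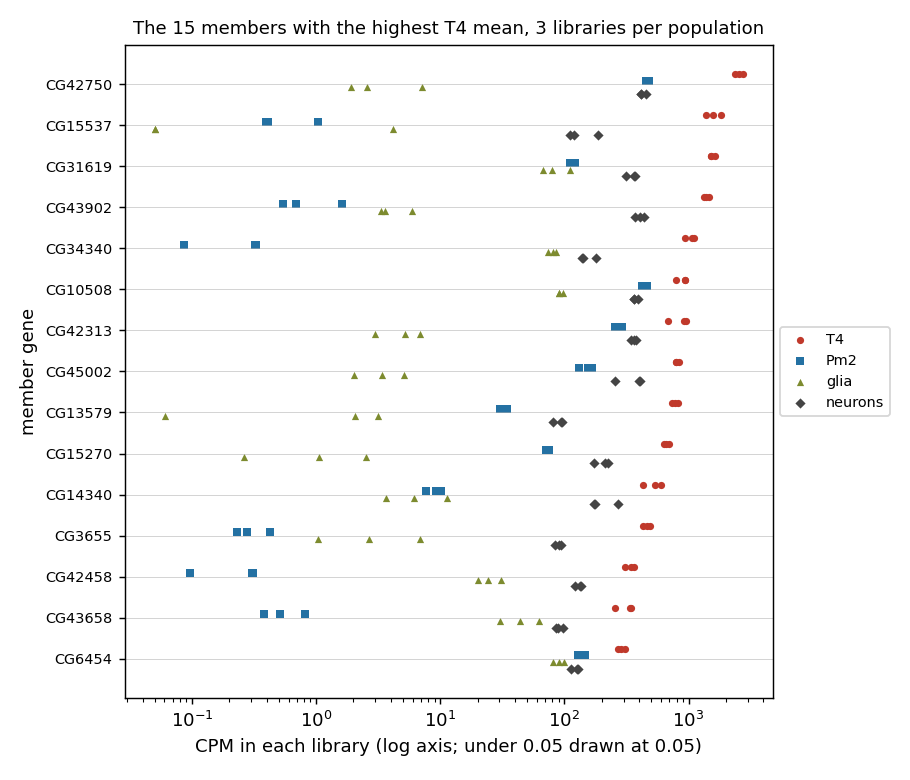
CPM in each library (log axis; values under 0.05 drawn at 0.05) of the 15 members with the highest T4 mean, 3 points per population, with T4 uppermost in each gene's row. T4 points lie to the right of all others in each of the 15 genes, while Pm2 and glia range from near 0.05 to 483 CPM.

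Members that now have a symbol fall into several roles. Drgx (CG34340; 2L, 3662745 to 3692114), a paired-type homeodomain transcription factor, had 939, 1066 and 1099 CPM in T4, 0.0865, 0.331 and 0.324 CPM in Pm2, 85.4, 81.6 and 73.4 CPM in glia, and 179, 141 and 138 CPM in neurons. It was thus near 0 in Pm2 and clearly present in glia.

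The cell-surface and secreted products included nolo (CG31619; 2L, 21684106 to 21729051), an ADAMTS-like secreted protein of the extracellular matrix. It had 1524, 1637 and 1510.3 CPM in T4, 122, 115.2 and 111 CPM in Pm2, 110.4, 67.6 and 79.6 CPM in glia, and 371, 362 and 312 CPM in neurons. The gene side-II (CG42313; 2L, 14907489 to 14972300), which encodes an immunoglobulin-domain surface protein of the Sidestep family, had 679.6, 961 and 924 CPM in T4, 289, 257 and 267 CPM in Pm2, 6.87, 2.97 and 5.16 CPM in glia, and 344, 379.6 and 363 CPM in neurons. Both were present in every neuronal library, and side-II was much lower in glia.

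Lgr4 (CG34411; X, 13161714 to 13189164), a leucine-rich-repeat G protein-coupled receptor, had 100.3, 156 and 181 CPM in T4, 0.190, 0.642 and 0.362 CPM in Pm2, 0.2004, 0.0694 and 0.165 CPM in glia, and 16.6, 13.7 and 12.6 CPM in neurons. Its T4 libraries did not overlap any other, at 10.2 times the mean of neurons. Of its exonic bases 29.2% are shared with CG12096 on the opposite strand, which averaged 46.0 CPM in T4, 26.8 in Pm2, 18.4 in glia and 29.8 in neurons, so reads of that stretch cannot be assigned. Orcokinin (CG13565), a neuropeptide precursor, had 15.3, 29.1 and 14.7 CPM in T4, 8.48, 11.1 and 9.93 CPM in Pm2, 1.503, 0.816 and 1.82 CPM in glia, and 7.45, 8.65 and 6.61 CPM in neurons. T4 replicate 2 carried much of its T4 mean.

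Genes of cytoskeleton, cilia and membrane traffic had fewer counts. TTLL5 (CG31108), of the tubulin tyrosine ligase-like family of tubulin-modifying enzymes, averaged 73.6 ± 9.25 CPM in T4, 27.7 ± 3.83 in Pm2, 8.24 ± 1.36 in glia and 32.1 ± 4.35 in neurons (SD, n = 3 each). Of its exonic bases 10.4% are shared with CG31510 on the same strand, and reads of that stretch cannot be assigned. CG31510 averaged 66.2 CPM in T4, 48.1 in Pm2, 17.7 in glia and 62.0 in neurons. Fam92 (CG6405), a protein of the ciliary base, averaged 39.2 ± 1.23 CPM in T4, 1.85 ± 1.10 in Pm2, 8.15 ± 1.56 in glia and 18.8 ± 1.02 in neurons. Vps8 (CG10144), a subunit of an endosomal tethering complex, averaged 68.3 ± 10.3 CPM in T4, 22.1 ± 4.49 in Pm2, 29.0 ± 19.1 in glia and 32.6 ± 2.59 in neurons, with 7.91 CPM in glia replicate 2 against 34.0 and 45.1 in the other glial libraries. Without glia replicate 2 its log2 ratio to the next population was 0.79, under 2 times, so that library decides its membership. T4 libraries lay above all others for each of the 3 genes.

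A pair of members is known from the testis. The gene tut (CG32364), which acts in the differentiation of germ-line cells, had 29.5, 30.5 and 39.1 CPM in T4, 0, 0.117 and 0 CPM in Pm2, 0.541, 2.43 and 0.734 CPM in glia, and 4.26, 4.36 and 4.36 CPM in neurons. The gene t-Grip128 (CG32232), a testis form of a gamma-tubulin ring component, had 22.9, 18.8 and 25.9 CPM in T4, 0, 0.0195 and 0.0191 CPM in Pm2, no count in glia, and 9.77, 8.02 and 7.53 CPM in neurons. It lies inside Con on the same strand, and reads from introns of Con cannot be told apart from its own. Con averaged 830 CPM in T4, 6.76 in Pm2, 14.6 in glia and 554 in neurons. Of a list of 7 genes of the male germ line, 6 are in the table. They summed to 11.2 to 14.5 CPM in T4, 6.77 to 8.86 in Pm2, 2.68 to 3.64 in glia and 8.63 to 11.8 in neurons. In that order of populations, 2, 4, 3 and 2 of them had no count. Most of the sum was betaTub85D in T4, Pm2 and neurons, with means of 9.90, 7.37 and 8.19 CPM, and Mst87F in glia, with 2.92. The gene can averaged 2.76 CPM in T4, 0.324 in Pm2 and 1.53 in neurons and had no count in glia.

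Enzymes formed the last group. Hpd (CG11796), of tyrosine catabolism, averaged 12.1 ± 1.27 CPM in T4, 3.54 ± 0.383 in Pm2, 1.23 ± 0.806 in glia and 4.47 ± 1.70 in neurons. Of its exonic bases 9.29% are shared with CtIP on the opposite strand, and reads of that stretch cannot be assigned. CtIP averaged 26.2 CPM in T4, 12.8 in Pm2, 6.38 in glia and 14.3 in neurons. CAH13 (CG12309), a carbonic anhydrase, averaged 10.6 ± 3.24 CPM in T4, 4.57 ± 0.573 in Pm2 and 3.44 ± 0.494 in neurons and had no count in glia. It lies inside Rab3 on the opposite strand, and reads from introns of Rab3 cannot be told apart from its own. Rab3 averaged 1088 CPM in T4, 729 in Pm2, 19.3 in glia and 1093 in neurons. Nepl18 (CG14528), of the neprilysin-like peptidases, averaged 9.13 ± 4.12 CPM in T4, 3.97 ± 0.694 in Pm2, 0.0306 ± 0.0530 in glia and 1.14 ± 0.410 in neurons. The same limit holds for Nepl18, which lies inside CG33203 on the opposite strand. CG33203 averaged 282 CPM in T4, 243 in Pm2, 4.42 in glia and 234 in neurons. For wwk (CG15270) and kairos (CG6123) no role is given here, and they are not counted among the enzymes. The gene wwk averaged 663 ± 32.2 CPM in T4, 72.6 ± 1.80 in Pm2, 1.29 ± 1.15 in glia and 204 ± 27.7 in neurons. In kairos the means were 207 ± 38.7 CPM in T4, 8.39 ± 0.647 in Pm2, 1.11 ± 1.18 in glia and 88.7 ± 8.42 in neurons. The remaining symbols, not grouped by role here, are nis (CG10869), ND-51L1 (CG11423), LManVI (CG9468) and Nepl19 (CG14523).

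The largest ratio to the next population did not belong to the members with the most counts. CG3492 (2R, 24472712 to 24474226, 1 exon) had 27.0, 31.4 and 32.7 CPM in T4, 0.277, 0.720 and 0.839 CPM in Pm2, no count in glia, and 0.314, 0 and 0.235 CPM in neurons. The T4 mean was 49.6 times that of Pm2 and at least 1640.2-fold higher than in glia, taking 3 counts over the glial libraries as the limit. CG6220 was next among members with a T4 mean of 10 CPM or more, with 17.5, 21.7 and 30.5 CPM in T4, 1.35, 1.19 and 2.04 CPM in Pm2, 0.0802, 0.0868 and 0.404 CPM in glia, and 1.06, 1.39 and 1.99 CPM in neurons, a ratio of 15.2. By means, CG9628 had glia as its next population, at 17.0 CPM against 14.6 in neurons. The libraries of glia and neurons overlapped, and glia replicate 2 carried the difference. CG9628 had 187, 143 and 159 CPM in T4, 2.53, 2.12 and 1.602 CPM in Pm2, 12.9, 25.3 and 12.7 CPM in glia, and 13.5, 16.3 and 14.01 CPM in neurons. CG13337 and CG18368 followed with ratios of 6.29 and 5.52 after CG15537, Lgr4, CG13579, tut and Drgx, which are described above.

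The spread of the T4 libraries is given beside that of CG genes in general, with no test. The coefficient of variation of the 3 T4 libraries had a median of 27.3% for members with a T4 mean of 2 to 10 CPM, beside 22.7% for all 667 CG genes in that range. For members at 10 CPM or more it was 12.5%, beside 10.8% for all 2334 CG genes. It passed 50% in 9 members, all with T4 means under 5 CPM. In 112 members all 3 T4 libraries lay above the other 9 libraries, an order found for 11.8% of the 10528 genes tested; the rule used this contrast, so nothing is read from the count.

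The comparisons among Pm2, glia and neurons did not enter the rule beyond the limit it sets on each, and were tested. Every gene that reached 10 counts in 3 or more libraries was fitted with edgeR's quasi-likelihood test, and genes were called where p, adjusted by Benjamini and Hochberg over the whole set of tested genes, was below 0.05. All 121 members passed this filter through their T4 counts; 116 also passed it on the 9 libraries without T4. Log2 differences are from this fit, scaled by trimmed mean of M values, and are given with their SE. Neurons can hold T4 cells, and how far T4 cells set the level of members in neurons was not tested.

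In Pm2 against neurons, 3 members were higher and 48 lower, while 70 did not pass the test. Over all genes tested, 35.6% were called, 15.5% higher and 20.1% lower. The median log2 difference was -1.34 over the members and -0.08 over all genes. Of the 116 members that passed the filter without T4, 3 were higher and 45 lower, with a median of -1.17. Among the members called lower, CG42458 had a log2 difference of -8.97 ± 0.31 (adjusted p = 7.5e-09), Drgx of -9.18 ± 0.33 (adjusted p = 8.4e-09) and CG43861 of -5.35 ± 0.23 (adjusted p = 3e-08). In each of them the Pm2 libraries lay below the neurons libraries. CG43861 (2L, 19968684 to 20017282) had 0.709, 0.623 and 0.896 CPM in Pm2 and 30.6, 32.8 and 33.8 CPM in neurons, beside 118, 111 and 106 CPM in T4.

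The members called higher in Pm2 than in neurons were CG7768, CG10508 and CG14694. CG7768 had 1.78, 2.06 and 2.42 CPM in Pm2 and 0.743, 0.742 and 0.314 CPM in neurons (log2 difference 1.89 ± 0.45, adjusted p = 0.00726). It lies inside nuf on the same strand, and reads from introns of nuf cannot be told apart from its own. The gene nuf averaged 121 CPM in T4, 61.0 in Pm2, 138 in glia and 77.7 in neurons. CG10508 had a log2 difference of 0.32 ± 0.09 (adjusted p = 0.0186), and its call was lost with library totals in place of scaling (adjusted p = 0.0824). It was also lost without Pm2 replicate 1 or 2 or neurons replicate 2 or 3, at adjusted p of 0.0506, 0.0648, 0.0535 and 0.0625. CG14694 had 1.02, 2.49 and 1.83 CPM in Pm2 and 0.7997, 0.494 and 0.653 CPM in neurons (log2 difference 1.54 ± 0.48, adjusted p = 0.0277). Its call was lost in a fit without the T4 libraries (adjusted p = 0.0618) and without Pm2 replicate 2 or 3 or neurons replicate 2 or 3 (adjusted p = 0.105, 0.0635, 0.0904 and 0.0742). CG42750 was close between Pm2 and neurons (0.25 ± 0.36, adjusted p = 0.636), as was side-II (-0.32 ± 0.26, adjusted p = 0.368).

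In glia against neurons, 3 members were higher and 82 lower, and 36 did not pass. Over all genes tested, 68.7% were called, 30.9% higher and 37.8% lower, and the median log2 difference was -3.39 over the members and -0.17 over all genes. Of the 116 that passed without T4, 3 were higher and 79 lower, with a median of -3.29. CG45002 (-6.33 ± 0.32, adjusted p = 1.74e-08), CG43861 (-4.50 ± 0.22, adjusted p = 1.39e-08) and side-II (-5.81 ± 0.32, adjusted p = 3.32e-08) had the smallest p-values among those lower. Drgx was lower by a small step (-0.57 ± 0.21, adjusted p = 0.0319), and CG6454 did not pass (-0.09 ± 0.13, adjusted p = 0.542).

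The members higher in glia than in neurons were CG14694, CG7768 and CG10359, all with T4 means under 10 CPM. CG14694 had 1.82, 3.66 and 1.28 CPM in glia (log2 difference 2.12 ± 0.49, adjusted p = 0.00249). CG7768 had 1.34, 1.58 and 1.21 CPM in glia (1.55 ± 0.45, adjusted p = 0.00951), and its call was lost with the 6 libraries of the comparison alone (adjusted p = 0.0555). Its enclosing gene nuf also had a higher mean in glia than in neurons, 138 against 77.7 CPM, and intron reads of nuf cannot be told apart from those of CG7768. CG10359 had 2.61, 2.52 and 0.771 CPM in glia and 0.171, 0.337 and 0.523 CPM in neurons (2.84 ± 0.91, adjusted p = 0.016), and its call was lost without neurons replicate 1 (adjusted p = 0.0585). For each of the 3 genes every glial library was above every neurons library.

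In Pm2 against glia, 45 members were higher and 15 lower, and 61 did not pass, beside 66.0% called over all genes, 33.8% higher and 32.2% lower. The members called higher were 37.2% and those called lower 12.4%. Of the 4612 CG genes tested, 36.5% were higher and 28.1% lower, so the share called higher was close to that of CG genes in general. The median log2 difference was 0.81 over the members, 0.14 over the CG genes and 0.00 over all genes. All 60 calls were among the 116 that passed without T4, whose median was 0.91. CG10508 (1.98 ± 0.10, adjusted p = 1.29e-08), side-II (5.49 ± 0.32, adjusted p = 4.85e-08) and CG45002 (5.19 ± 0.31, adjusted p = 5.69e-08) were higher in Pm2. Drgx (-8.61 ± 0.32, adjusted p = 1.55e-09), CG42458 (-6.94 ± 0.29, adjusted p = 4.28e-09) and CG43658 (-6.58 ± 0.35, adjusted p = 2.69e-08) were lower in Pm2 than in glia. The 3 comparisons share libraries, so their counts are not independent of one another. With library totals in place of scaling, the median of all genes moved to -0.17 for Pm2 against neurons, -0.52 for glia against neurons and 0.22 for Pm2 against glia, and that of the members to -1.45, -3.76 and 1.10.

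**Figure D3:**
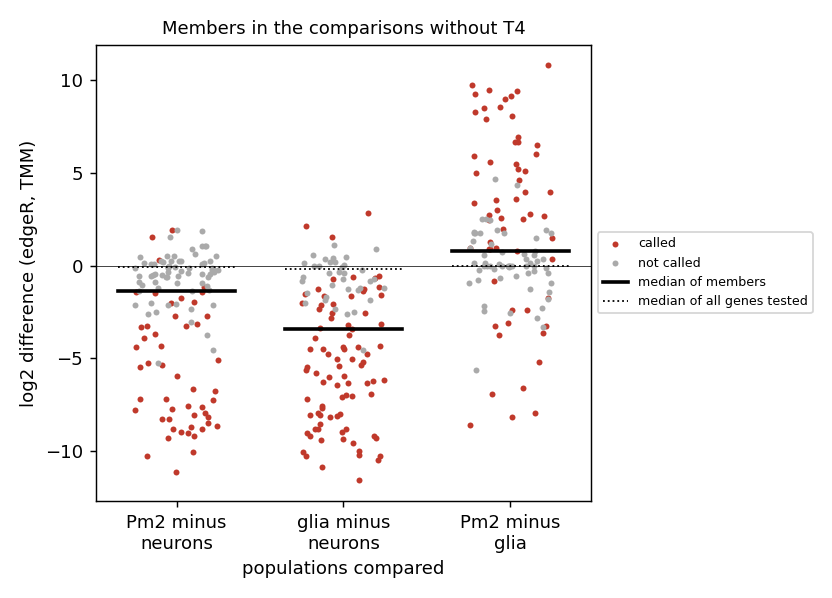
Log2 difference (edgeR, scaled by trimmed mean of M values) of each member in the 3 comparisons without T4; red points were called and grey points were not. The thick lines give the median of the members, -1.34, -3.39 and 0.81, and the dotted lines that of all genes tested, -0.08, -0.17 and 0.00.

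Position in the genome was not used by the rule. Of the 120 annotated members, 50 (41.7%) lie inside the span of another gene, beside 9.55% of the 2995 annotated CG genes with a T4 mean of 2 CPM or more. Seen from the other side, 17.5% of the 286 CG genes inside another gene were members, and 2.58% of the 2709 that were not. The share depended on level. It was 50% of 62 members at 2 to 10 CPM, beside 22.1% of 665 CG genes, and 54.5% of 33 members at 10 to 100 CPM, beside 6.96% of 1667. At 100 CPM or more it was 4% of 25 members, a single gene inside an antisense RNA, beside 3.47% of 663. These shares are given without a test. A single exon was annotated for 31.7% of members and 11.3% of CG genes.

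**Figure D4:**
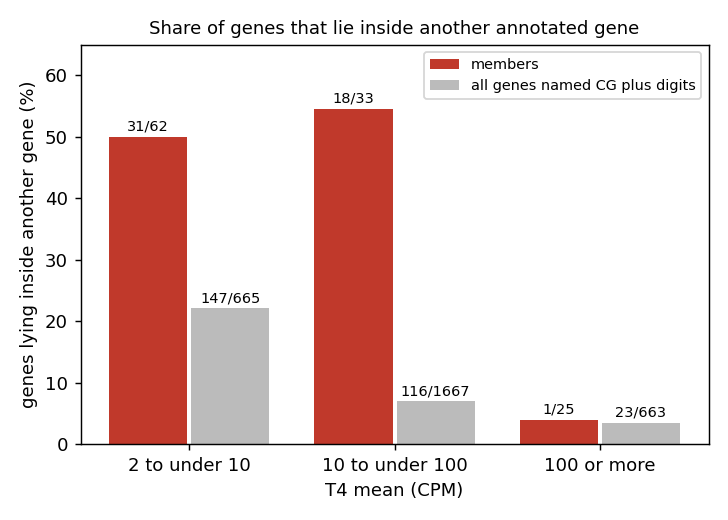
Percent of genes that lie inside another annotated gene, by T4 mean in CPM, for members (red) and for all genes named CG plus digits (grey), with the numbers of genes above the bars. Members stand at 50% and 54.5% in the lower classes, beside 22.1% and 6.96%, and at 4% beside 3.47% in the highest.

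The same split was looked at in all CG genes with a mean over the 12 libraries of 2 CPM or more, whichever population was highest. Of the 296 inside another gene, 10.1% were at least 2 times higher in T4 than in each other population, 7.77% in Pm2, 15.5% in glia and 1.01% in neurons. Of the 2999 others, the shares were 1.63% for T4, 3.20% for Pm2, 14.9% for glia and 2.90% for neurons. Members made up 30 of the 296 and 48 of the 2999, so the T4 shares count almost only members and nothing is read from them. For Pm2 the share was larger among genes inside another gene, for glia about the same and for neurons smaller. No test was made, and the genes were not matched on level.

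For 48 of the 50 the enclosing gene is protein coding and in the table, on the same strand for 22 and on the opposite strand for 26. The cDNA kit does not mark strand and the setting used in counting is not given in the sources used here, so reads from introns of the enclosing gene cannot be told apart from reads of the member in either orientation. The enclosing genes were abundant in T4, with a median of 578 CPM, and 46 of the 48 members lie in one above 100 CPM. The members themselves had a median of 7.32 CPM, beside 17.3 CPM for members not inside another gene. In T4 a member had a median of 1.25% of the CPM of its enclosing gene, without correction for length, and 43 of 48 had under 5%. The enclosing genes include cell-surface proteins of neuronal wiring (tei, Ten-a, dpr1, dpr10, Con, Fas3, klg), the potassium channel gene Sh, the exchanger gene Nckx30C and Rab3, Rim and unc-104, of the transport and release of synaptic vesicles.

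Some of the enclosing genes shared the direction of the member. In 24 of 48 cases the enclosing gene was itself at least 2 times higher in T4 than in each other population, and in 11 it was not highest in T4. Counted once each, 16 of 37 different enclosing genes met that ratio. Of these cases, 6 are members inside another member, where the rule itself sets the ratio of the enclosing gene. The same share over all genes was not counted, so nothing is read from these numbers. The ratio of the member was above that of its enclosing gene in 43 cases. In T4 the share of the enclosing gene's level was within 1.5 times that in neurons for 11 members and over 2 times that in neurons for 26. The rule required a ratio of at least 2 of each member and not of its enclosing gene. It thereby favours members above their enclosing genes, and nothing is read from these counts. Across the 48, the log2 difference between T4 and neurons of the member had a Spearman correlation of 0.48 with that of the enclosing gene, given as a description, since both come from the same libraries and several members share an enclosing gene.

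**Figure D5:**
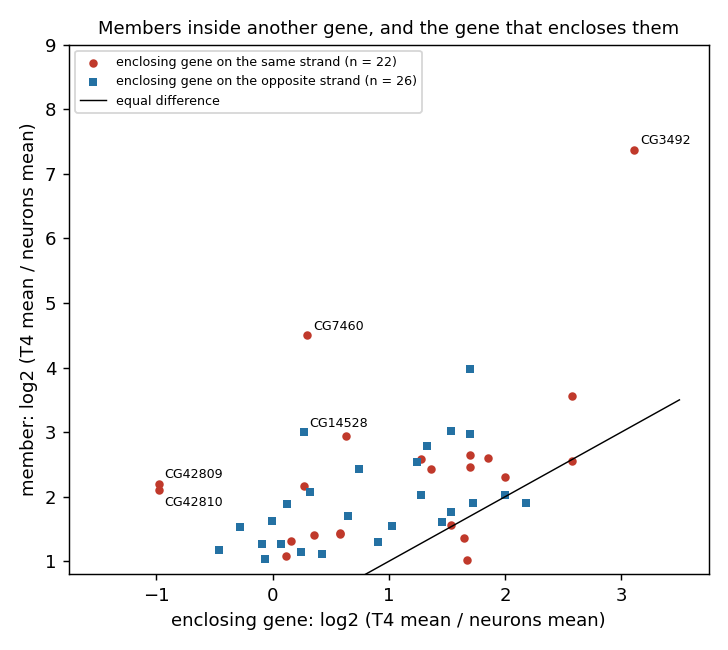
Log2 of the T4 mean over the neurons mean for 48 members (vertical) against that of the protein-coding gene that encloses each (horizontal), by strand, with a line of equal difference. Most points lie above the line, and CG42809 and CG42810 stand at the left, where the enclosing gene was lower in T4 than in neurons. The rule required members, and not enclosing genes, to be at least 2 times higher in T4 than in neurons, which favours points above the line.

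Cases at both ends can be shown. CG31802 (2L, 18208415 to 18209237) lies on the same strand inside CG42750 and had 10.8, 9.61 and 7.54 CPM in T4, 2.77, 1.75 and 1.93 CPM in Pm2, no count in glia, and 1.57, 2.02 and 1.15 CPM in neurons. That is 0.365% of CG42750 in T4, 0.453% in Pm2 and 0.370% in neurons, nearly a fixed share. In the same way CG45603 had 0.0848% of Ten-a in T4, 0.129% in Pm2 and 0.0831% in neurons, and CG8072 had 1.65% of dpr10 in T4 and 1.62% in neurons, with a single count of CG8072 in Pm2.

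At the other end, CG42809 and CG42810 (2L, 13457497 to 13458073 and 13459681 to 13460183) lie inside CG42784, which averaged 437 CPM in T4, 823 in Pm2, 12.4 in glia and 861 in neurons. CG42810 had 10.4, 11.7 and 8.38 CPM in T4, 1.76, 2.10 and 2.19 CPM in Pm2, 0, 0.0694 and 0 CPM in glia, and 1.80, 3.08 and 2.20 CPM in neurons. Member and enclosing gene thus ran in opposite directions between T4 and the other neuronal populations. CG42810 had 2.32% of the level of CG42784 in T4 and 0.274% in neurons.

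CG7460 (3L, 17740540 to 17742540) lies inside Ccn, which averaged 163 CPM in T4, 1.23 in Pm2, 0.641 in glia and 132 in neurons. The member had 7.41, 8.40 and 7.43 CPM in T4, 0, 0.0195 and 0 CPM in Pm2, 1.08, 0 and 0 CPM in glia, and 0, 0.921 and 0.105 CPM in neurons. T4 and neurons were thus close for Ccn and far apart for CG7460. CG3492, the member with the largest ratio, lies in CG13579, itself a member, and had 3.88% of its level in T4, 1.89% in Pm2 and 0.203% in neurons.

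Several members share an enclosing gene. CG13337, CG18368, CG6220 and CG6209 all lie within tei (table name fas), which averaged 899.6 CPM in T4, 47.1 in Pm2, 4.46 in glia and 276 in neurons. They had 5.48%, 3.14%, 2.58% and 0.629% of its level in T4, 6.83%, 3.84%, 3.24% and 0.665% in Pm2, and 2.83%, 1.85%, 0.535% and 0.261% in neurons. CG13337 had 36.7, 51.0 and 60.1 CPM in T4, 1.85, 3.68 and 4.12 CPM in Pm2, 0, 0 and 0.660 CPM in glia, and 8.83, 4.38 and 10.3 CPM in neurons. CG18368 had 25.0, 32.8 and 26.9 CPM in T4, 1.54, 1.89 and 2.00 CPM in Pm2, no count in glia, and 7.45, 2.76 and 5.12 CPM in neurons. All 4 genes were lower in every Pm2, glia and neurons library than in any T4 library. Ten-a encloses CG32655, CG1924 and CG45603, and dpr10, Con, rsh (table name rad) and CG33203 enclose a pair each, t-Grip128 and CG17030 in Con and Nepl18 and Nepl19 in CG33203.

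In all, 6 members lie inside another member: CG3492 in CG13579, CG31802 and CG31788 in CG42750, CG3491 in side-II, CG1698 in CG1688 and CG33278 in CG42458. Counting these, 30 members lie within 20 kb of another. Pairs with no common enclosing gene were tut and CG8006, 1147 bases apart on 3L, LManVI and CG42710, 547 bases apart on 2L, and Drgx and CG31777, 14437 bases apart on 2L. CG8006 had 6.28, 11.2 and 5.48 CPM in T4, no count in Pm2 or glia, and 0.143, 0.404 and 0.653 CPM in neurons, so that it shared with tut the near absence from Pm2. Members were spread over the arms, with 28 on 2L, 20 on 2R, 27 on 3L, 26 on 3R and 19 on X.

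Overlap of exons and gene length are given without a test and without matching on level. Exonic bases were shared with another gene by 21.7% of members and 42.4% of the 2995 CG genes, and CG2256 was the member with over 50% shared, at 72.0%. The span of a gene had a median of 2179.5 bases over the members and 2429 over those CG genes. It was 4812.5 beside 2705.5 bases at a T4 mean of 10 CPM or more, and 1721.5 beside 1656 bases below it.

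Calls between the other populations were also split by position. In glia against neurons, 38 of the 50 members inside another gene were lower and 1 higher, as were 43 and 2 of the 70 that are not, beside 37.8% lower and 30.9% higher over all genes tested. In Pm2 against neurons, 17 of the 50 were lower and 1 higher, and 30 and 2 of the 70, beside 20.1% lower and 15.5% higher. In Pm2 against glia, 24 of the 50 were higher and 4 lower, and 21 and 11 of the 70, beside 33.8% higher and 32.2% lower. The 50 and 70 include members that passed the count filter only through their T4 counts. The split was not repeated on the 116 members that passed it without T4. Whether these splits differ was not tested.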

How the data were processed

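The deposited table holds counts per gene for 12 libraries. Its name calls the values normalized, but they are whole numbers with unequal library totals and were analysed as counts. The submitters' processing notes name HTSeq 0.6.1, STAR 2.5.2, Trimmomatic 0.32 and the build BDGP6, with no settings. Per the labels, cDNA was made with a SMART-Seq kit. Lanes of single libraries are not given in the sources used here. Elav columns were assigned to the group, not to single samples, so the numbers of neurons replicates are column numbers; 0 columns were unused and no row lacked a gene name.

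CPM are counts per 1000000 of the column total. The 10528 genes that reached 10 counts in 3 or more libraries were tested in edgeR 4.0.16 (R 4.3.3) with TMM scaling and 4 group means over 12 libraries, two-sided, called at an adjusted p below 0.05; SE is the log2 difference over the root of F. TMM factors were 1.10 to 1.14 in T4, 0.977 to 1.01 in Pm2, 0.805 to 0.897 in glia and 1.06 to 1.08 in neurons. The script was tested on simulated counts. Alternatives were DESeq2 1.42.0, limma 3.58.1, other scalings, filters and fits, and leaving out libraries. Positions come from Ensembl release 115 of BDGP6, symbols from RefSeq. A gene inside another lies wholly within its annotated span.

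Members and lists were chosen with earlier results of these data known. Named are the 15 members highest in T4, the 10 with the largest ratio at a T4 mean of 10 CPM or more, members with a symbol (values for 15), the 3 called members of smallest adjusted p per direction and comparison, members neighbouring or enclosing these, and the genes nearest the limits. CG8072, CG45603, CG13898, CG8476, CG7460, CG42809, CG42810, CG31802, CG17030, CG42710, CG31777, CG8006 and CG2256 were named after their values were seen. Other marker lists were summed over their genes and the sums averaged over libraries, in the order T4, Pm2, glia and neurons. The means of the sums were 14163, 11750, 445 and 14684 CPM for pan-neuronal genes and 32.1, 0.575, 8.58 and 986 for VGlut. They were 814, 462, 267 and 532 for photoreceptor genes (almost all norpA) and 0, 0.147, 4.54 and 0.317 for haemocyte genes. For fat body genes they were 0.322, 0.138, 2.56 and 1.35, and for muscle genes 19.4, 1.18, 9.55 and 2.02. For Kenyon cell genes they were 212, 673, 8.38 and 281, mostly rut. Of that list, ey and Dop1R2 had 0.826 or less in T4 and Pm2, and 76.9 and 25.5 in neurons. Protein features and promoter motifs were not analysed here.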

Additional observations from a re-analysis of the deposited data

How the results depend on the processing

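The number of genes meeting the rule was 121. It was 100 with TMM-scaled levels, 98 with median-of-ratios size factors, 145 with a minimum T4 mean of 1 CPM and 81 with 5 CPM. It fell to 60 at 3 times each other population, 28 at 5 times, 53 when the lowest T4 library had to be 2 times the other 9, 39 for genes that overlap no other gene and 70 for genes inside no other gene. The last of these subsets and the fit with library totals were chosen after seeing the data. Leaving out each library in turn gave 116 to 131 genes. Of the members called, Pm2 against neurons had 51 (46 to 49 with a library left out), glia against neurons 85 (76 to 88) and Pm2 against glia 60 (56 to 65). Among members that overlap no other gene 15, 24 and 13 were called, and among those inside no other gene 32, 45 and 32, since fewer members are counted. DESeq2 called 56, 87 and 58, and limma 54, 91 and 64. The 3 members higher in Pm2 than in neurons were 1 without Pm2 replicate 2 or without neurons replicate 3, 5 by DESeq2 and 6 with the 6 libraries alone; the 3 higher in glia than in neurons were 5 without glia replicate 2. The cause was not tested. Replicate numbers did not pair Pm2 and glia libraries (correlations of same-numbered deviations 0.0014, -0.0213 and -0.0215); with replicate number as a block, 32 members were called in Pm2 against glia, 22 higher and 10 lower, beside 43 without the block on the same 6 libraries. Directions were followed for the ratios to T4 of the members named by rule. They were also followed for the 3 called members of smallest adjusted p per direction and comparison. None of these reversed under the alternatives run, and the directions of other members were not followed. The ratio of Vps8 to its next population was 0.66 on the log2 scale with median-of-ratios size factors, that of CG6454 0.92 and of CG10508 0.87 with TMM, all under 2 times. Vps8 was at 0.78 with TMM and 0.79 without glia replicate 2.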
